A study of Mus musculus with 11 samples.

Results

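The genes described here encode the 2 classes of major histocompatibility complex (MHC) molecules that show peptides to T cells. They were the 7 of 23507 gene rows of the count table that map to Cd74, H2-Aa, H2-Ab1 and H2-Eb1 (4 genes, class II) and to B2m, H2-K1 and H2-D1 (3 genes, class I). The rows were taken by symbol, and the symbols were chosen with earlier results of these data known. MHC class I molecules are present on nearly all nucleated cells and carry peptides cut by the proteasome in the cytosol, which the transporter TAP moves into the endoplasmic reticulum. A heavy chain, such as the products of H2-K1 and H2-D1, pairs there with beta-2 microglobulin, the product of B2m. MHC class II molecules are kept mainly by macrophages, dendritic cells and B cells, and carry peptides from material that the cell has taken up. H2-Aa and H2-Ab1 encode the alpha and beta chains of I-A, H2-Eb1 the beta chain of I-E, and Cd74 the invariant chain, which fills the groove of a new class II molecule until it reaches the endosome. In white fat, macrophages are the best known class II cells, and interferon-gamma is the best known inducer of both classes.

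The cells were sorted from perigonadal white adipose tissue (pgWAT) after removal of its adipocytes, the stromal vascular fraction, from adult mice carrying Tg(Pdgfrb-eGFP) on a C57BL6/J background. In these mice the Pdgfrb promoter drives green fluorescent protein, and the reporter was used to sort mural cells and adipose stem cells (ASC). The males were mice 1, 4 and 8 and the females mice 2, 3, 5 and 6/7, the last being 2 animals under 1 label. The labels name no treatment. Cells positive for CD45 were depleted before the sorting by the reporter, CD31 and DPP4, so the macrophages described below are those that passed these gates, and their number is not the number in the tissue. The 3261 cells (1177 male and 2084 female, on 11 plates) had between 149931 and 3548334 reads each, with a median of 629323. The Smart-seq2 libraries carry no molecular identifiers, so each value counts reads rather than molecules.

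Cell classes were rebuilt by clustering without 67 listed genes, which are the 7 genes above and the pathway, class I-like, factor and interferon genes listed below. The classes are written "-like" because they rest on fixed markers. Other genes named below, such as the macrophage markers, were not left out. There were 2250 ASC-like cells, 560 endothelial (EC)-like cells, 137 macrophage-like cells, 101 mural-like cells (60 pericyte-like and 41 like vascular smooth muscle cells, VSMC), 19 epithelial-like cells and 22 cells like lymphatic EC, and 172 cells stayed unnamed. Reads were summed per mouse and class where a mouse had at least 10 cells, which gave 7 sums for ASC-like, 5 for EC-like (mice 1, 2, 5, 6/7 and 8), 2 for macrophage-like (mice 1 and 5) and 2 for mural-like cells (mice 1 and 2). A sum held 14765132 to 594421842 gene reads. The macrophage-like cells were 76 cells of mouse 1, of which 73 came from the CD31-positive plate, and 61 cells of mouse 5 from a plate sorted on the reporter. The macrophage markers Cd68, Cd14 and Cd163 all had reads in both mice (Cd68 at 882 and 1127 CPM, the counts-per-million unit, here over reads outside ribosomal RNA). Ptprc, which encodes CD45, stood at 395.4 CPM over these cells, although the gate had selected against it. The B cell and the T and NK cell lists had a median of 0 CPM per cell in both mice. The dendritic cell list had a median of 10.01 CPM in mouse 1 and 4.87 CPM in mouse 5, where Itgax and Ccr7 were at 0. It was over 10 CPM in 38 of 76 cells of mouse 1 and 29 of 61 of mouse 5, and reached 13690 and 2086 CPM in single cells. Limits of the classes touch the results below. In mouse 1 the pericyte-like cells carried a median of 1329 CPM of the 4 EC markers Pecam1, Cdh5, Kdr and Cldn5, and in mouse 2 of 7576 CPM, against 5125 and 12780 CPM in the EC-like cells of the same mice. By each cell's own markers, 115 of the 137 macrophage-like cells kept their class. Of the others, 11 fell to EC-like, 6 to lymphatic EC-like, 3 to mural-like and 2 to ASC-like cells. EC markers summed to over 10 CPM in 75 of 76 macrophage-like cells of mouse 1 and 22 of 61 of mouse 5. ASC-like markers did so in 15 and 61 of these cells.

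Of the members, B2m lies on mouse chromosome 2 (122147686 to 122153083, plus strand, GRCm38) and 5 lie in the MHC on chromosome 17, while Cd74 is on another chromosome. The class II genes H2-Ab1 (34257689 to 34269419, plus), H2-Aa (34282744 to 34287823, minus) and H2-Eb1 (34305867 to 34316674, plus) are neighbours there, H2-K1 (33996017 to 34000347, minus) is on one side of them and H2-D1 (35262730 to 35267499, plus) on the other. The coordinates span whole genes in the GENCODE vM21 annotation. Promoter sequences were matched in RefSeq for 5 of the 7 members (GRCm38.p6), and Cd74 and H2-Ab1 had no entry. The 200 bases before the start are shown because class II genes, and likewise class I genes, moved together between cell classes in the results below. Capitals mark matches, on either strand, to CCAAT (the Y box core), TGACG (the cyclic AMP element core), the interferon response element core (GAAA, any 2 bases, GAAA) and the class I kappa B site, which is the first run of capitals in H2-K1.

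The class II promoters were those of H2-Aa (chr17:34287824-34288023, minus strand) and H2-Eb1 (chr17:34305667-34305866, plus strand).
H2-Aa: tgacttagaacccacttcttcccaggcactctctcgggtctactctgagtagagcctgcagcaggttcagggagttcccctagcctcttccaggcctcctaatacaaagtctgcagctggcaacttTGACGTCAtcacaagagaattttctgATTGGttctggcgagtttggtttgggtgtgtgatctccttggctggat
H2-Eb1: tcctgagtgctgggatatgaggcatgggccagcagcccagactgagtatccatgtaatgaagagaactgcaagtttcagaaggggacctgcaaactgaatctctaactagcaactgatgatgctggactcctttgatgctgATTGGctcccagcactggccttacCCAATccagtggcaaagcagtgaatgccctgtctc

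The class I promoters were those of B2m (chr2:122147487-122147686, plus strand), H2-K1 (chr17:34000348-34000547, minus strand) and H2-D1 (chr17:35262894-35263093, plus strand).
B2m: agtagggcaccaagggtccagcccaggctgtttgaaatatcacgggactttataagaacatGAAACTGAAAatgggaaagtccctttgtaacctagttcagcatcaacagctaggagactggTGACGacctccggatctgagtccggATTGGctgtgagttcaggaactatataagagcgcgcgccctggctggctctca
H2-K1: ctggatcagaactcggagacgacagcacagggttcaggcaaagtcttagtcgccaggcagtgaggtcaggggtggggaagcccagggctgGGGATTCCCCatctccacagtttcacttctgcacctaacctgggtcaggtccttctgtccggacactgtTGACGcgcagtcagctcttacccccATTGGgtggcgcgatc
H2-D1: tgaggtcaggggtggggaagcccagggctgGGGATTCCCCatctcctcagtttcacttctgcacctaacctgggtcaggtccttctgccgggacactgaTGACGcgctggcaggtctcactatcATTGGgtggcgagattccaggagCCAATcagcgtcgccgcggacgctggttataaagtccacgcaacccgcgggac

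All 5 promoters held CCAAT, which in the bases shown for H2-Aa, B2m and H2-K1 reads only on the minus strand, as ATTGG. In H2-Aa the pair of TGACG matches overlapped on opposite strands, and H2-Eb1 had none. Among these 5, B2m alone held the exact letters of the interferon response element core, and H2-K1 and H2-D1 alone those of the kappa B site. Other forms of these elements were not searched for, so a promoter without a match may still hold one. The promoters of H2-K1 and H2-D1 shared a run of 47 bases. Over 300 bases around the start, CCAAT was in 37.4% of 32851 promoters, TGACG in 20.8%, the interferon response element core in 3.44% and the kappa B site in 0.0852%. These are matches of letters and were not tested as binding sites.

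Class II transcripts were high in macrophage-like cells, at 3707 scaled CPM or more for each gene. They were at 178.6 or less in every ASC-like, EC-like and mural-like sum (the plot of levels by class and mouse). Levels are scaled CPM, which are CPM over reads outside ribosomal RNA, scaled with the TMM factors of edgeR. Cd74 (chromosome 18, 60803848 to 60812652, plus strand) stood at 13920 scaled CPM in the macrophage-like cells of mouse 1 and 10050 in those of mouse 5. In ASC-like cells its lowest, median and highest values over 7 mice were 0.428, 2.09 and 9.36, and in EC-like cells it was 112.6 in mouse 1, 0.182 in mouse 2, 5.82 in mouse 5, 3.49 in mouse 6/7 and 0 in mouse 8, where 3 reads would be 0.553. Both macrophage-like sums thus lay above all of these, with no overlap. H2-Aa, the I-A alpha chain, was at 4831 and 5281 in macrophage-like cells of mice 1 and 5 and ran from 0.0238 to 3.95 over the ASC-like sums. H2-Ab1, its beta chain, was at 3984 and 4583 against 0.309 to 4.68 in ASC-like cells. H2-Eb1, the I-E beta chain, was at 3707 and 4614 against 2.31 to 6.71. C57BL mice lack a working gene for the I-E alpha chain, so this transcript is known in them without its protein partner. Per kilobase of exon, Cd74 led the class II genes in macrophage-like cells with 7138 ± 1630 scaled CPM (SD, n = 2), followed by H2-Eb1 (2140 ± 330), H2-Ab1 (1668 ± 165) and H2-Aa (1331 ± 83.8). The values of the 2 mice did not overlap between neighbours in this order.

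**Figure D1:**
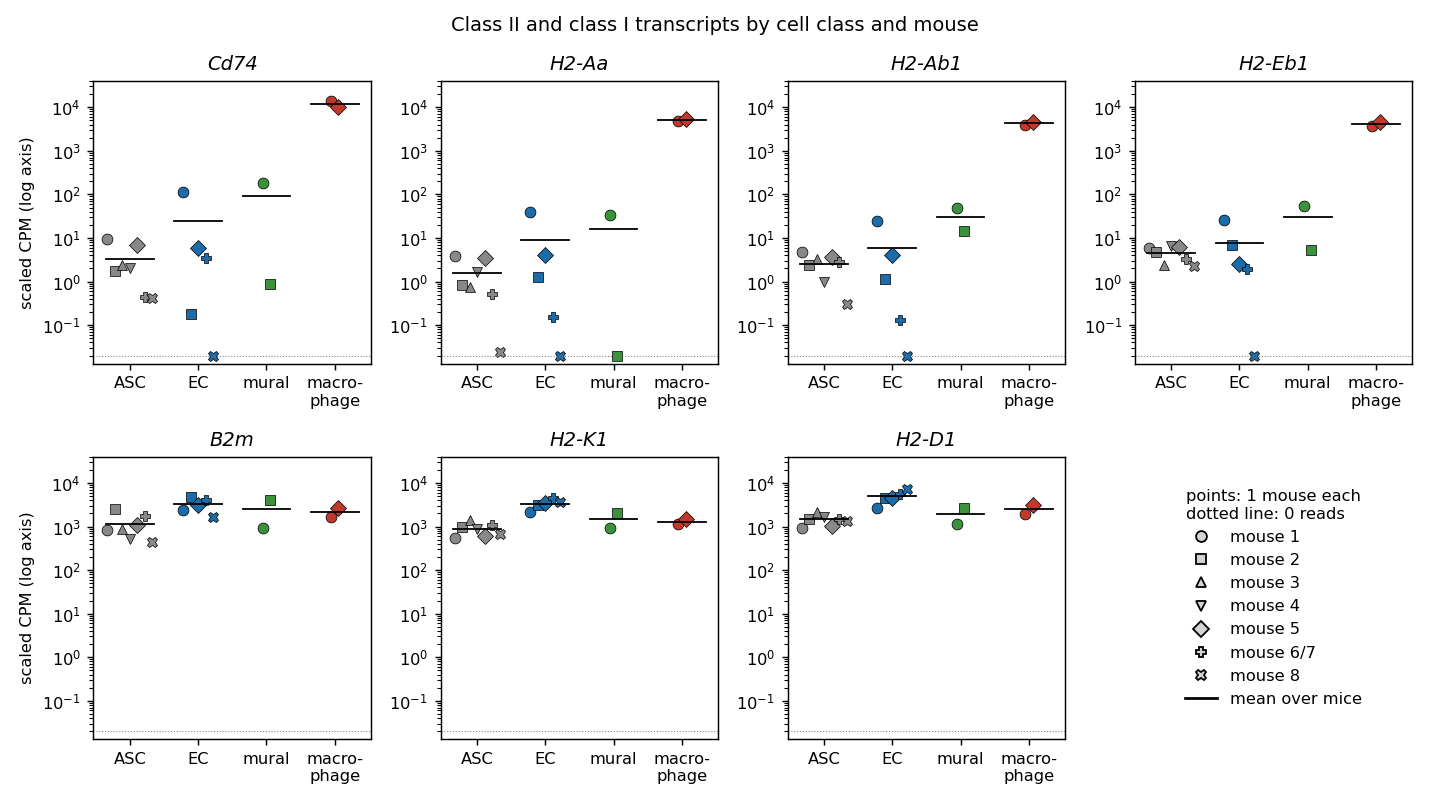
Scaled CPM (log axis) of the 7 genes in ASC-like, EC-like, mural-like and macrophage-like cells, with 1 point per mouse and a line at the mean, and points on the dotted line had 0 reads. Class II genes reach 3707 to 13920 only in macrophage-like cells, while class I genes lie between 451.5 and 7178 in all 16 sums.

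The 4 class II members were higher in macrophage-like than in ASC-like cells and all 4 passed the test, at an adjusted p-value below 0.05 and more than 2.6-fold. The background was 785 of 12836 genes called higher in macrophage-like cells (6.12%), and 8.79% were called lower. The log2 fold changes were 9.61 ± 1.74 for Cd74, 9.57 ± 1.55 for H2-Aa, 9.07 ± 1.44 for H2-Ab1 and 8.86 ± 1.30 for H2-Eb1 (± SE), with adjusted p between 0.00214 and 0.00578 in edgeR's quasi-likelihood test with the mouse as a block. Within mouse 1 the ratio of macrophage-like to ASC-like cells was 1487 for Cd74 and 642 for H2-Eb1, and within mouse 5, whose sums share a plate, 1464 and 758. H2-Aa passed the filter on low counts only through the macrophage-like sums, since 1 other sum had over 600 reads. Without mouse 5, which leaves 1 macrophage-like sum, H2-Eb1 alone was called, and Cd74 had an adjusted p of 0.0893. Classes from each cell's own markers gave an adjusted p of 0.071 for Cd74 and 0.11 for H2-Ab1.

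Against EC-like cells the 4 class II members were also called higher in macrophage-like cells, where 6.32% of genes were called higher and 7.63% lower. Their log2 fold changes were 9.17 ± 1.6 for Cd74, 8.96 ± 1.4 for H2-Aa, 9.5 ± 1.2 for H2-Ab1 and 9.08 ± 1.2 for H2-Eb1, with adjusted p of 0.00504 or less in edgeR. H2-Aa again entered the test only through the macrophage-like sums, which the 2 comparisons share. The ratio within a mouse differed widely, since Cd74 was 124 times higher in macrophage-like than in EC-like cells of mouse 1 and 1726 times higher in mouse 5. Without mouse 5, 2 of the 4 members were called (H2-Ab1 and H2-Eb1), and 2 with classes from each cell's own markers (H2-Aa and H2-Eb1).

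Genes of the class II pathway were high in the same cells. Of 13 listed genes 8 were tested, and of these Ciita, H2-DMa, Ctss, Cd86 and Cd40 passed the filter on low counts only through the macrophage-like sums, so that a difference was built into their test. Called higher in macrophage-like than in ASC-like cells were Ctss (10.47 ± 1.68), a protease that degrades the invariant chain, the co-stimulatory receptor genes Cd86 (9.79 ± 1.24) and Cd40 (5.57 ± 1.65), Ciita (8.98 ± 2.15), the coactivator on which class II transcription depends, and Lgmn (3.92 ± 0.77), a lysosomal protease. Lgmn was thus the 1 gene called of the 3 that passed the filter in other classes too, and H2-DMb1 and Ifi30 were not called. Of all genes, 6.12% were called higher in macrophage-like than in ASC-like cells. H2-DMa and H2-DMb1, the chains of the molecule that exchanges the invariant chain remnant for peptide, averaged 378.9 ± 109 and 307.5 ± 85.2 scaled CPM (SD, n = 2) in macrophage-like cells. Against ASC-like cells their adjusted p was 0.0602 and 0.0836, so neither was called. In EC-like cells they averaged 0.754 ± 1.43 and 0.55 ± 0.913 (n = 5). Against EC-like cells the 3 genes that passed the filter in other classes too (H2-DMb1, Ifi30 and Lgmn) were called, where 6.32% of genes were called higher and 7.63% lower. Of these 3, H2-DMb1 stood at 8.85 ± 1.61 and Ifi30, a thiol reductase of the endosome, at 8.39 ± 1.24, with adjusted p of 0.0385 or less in edgeR. H2-DMa (9.63 ± 1.74), Cd86 (8.20 ± 1.12), Ctss (8.19 ± 1.45) and Ciita (7.59 ± 2.07) also passed the limits. They entered the test only through the macrophage-like sums, so their calls are no separate evidence of a difference. Ifi30 itself was the 1 pathway gene called between EC-like and ASC-like cells, lower in EC-like cells (3.32 ± 4.55 against 93.0 ± 36.8 scaled CPM, n = 5 and 7). In that comparison 8.69% of genes were called higher in EC-like cells and 13.3% lower. The subunits of the factors that bind class II promoters (RFX, NF-Y and CREB) gave 0 calls among 6 tested between macrophage-like and ASC-like cells, where 6.12% of genes were called higher and 8.79% lower. Of these 6, Nfyb was called lower in macrophage-like than in EC-like cells (-2.08 ± 0.59), and Rfxap higher in EC-like than in ASC-like cells (2.75 ± 0.46).

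Within the macrophage-like class the 4 class II transcripts spanned several orders of magnitude from cell to cell, while class I did not (the plot of macrophage-like cells). Cells of 1 mouse share their animal, so these ranges are descriptions. Levels per cell are CPM outside ribosomal RNA. Cd74 ran from 9.04 to 73900 CPM over the 137 cells, with quartiles of 763.3 and 20110, a median of 5062 and no cell at 0. H2-Aa had a median of 1332 and a highest value of 27680 CPM, H2-Ab1 of 1333 and 24600, and H2-Eb1 of 1105 and 25510. The 90th percentile was 410.6 times the 10th for Cd74 and 959.3 to 1143 times for the other 3. For B2m this ratio was 4.495, for H2-D1 5.25 and for H2-K1 11.8. B2m had a median of 1515 CPM, H2-K1 of 1029 and H2-D1 of 1925. Summed, class II covered a 447.4-fold range between these percentiles (402.9 in mouse 1 and 343.3 in mouse 5) and class I a 3.41-fold one, so the wide range was found in each of the 2 mice. The 10th percentile of the class II sum was 143.0 CPM in mouse 1 and 228.9 in mouse 5. Pooled EC-like cells of mouse 1 held 201.3 CPM, so the 10th percentile there lies below the pooled level of these cells. It lies above that of the pooled ASC-like cells of mouse 1, at 22.85 CPM. In mouse 5 the EC-like cells held 18.5 CPM and the ASC-like cells 22.15.

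**Figure D2:**
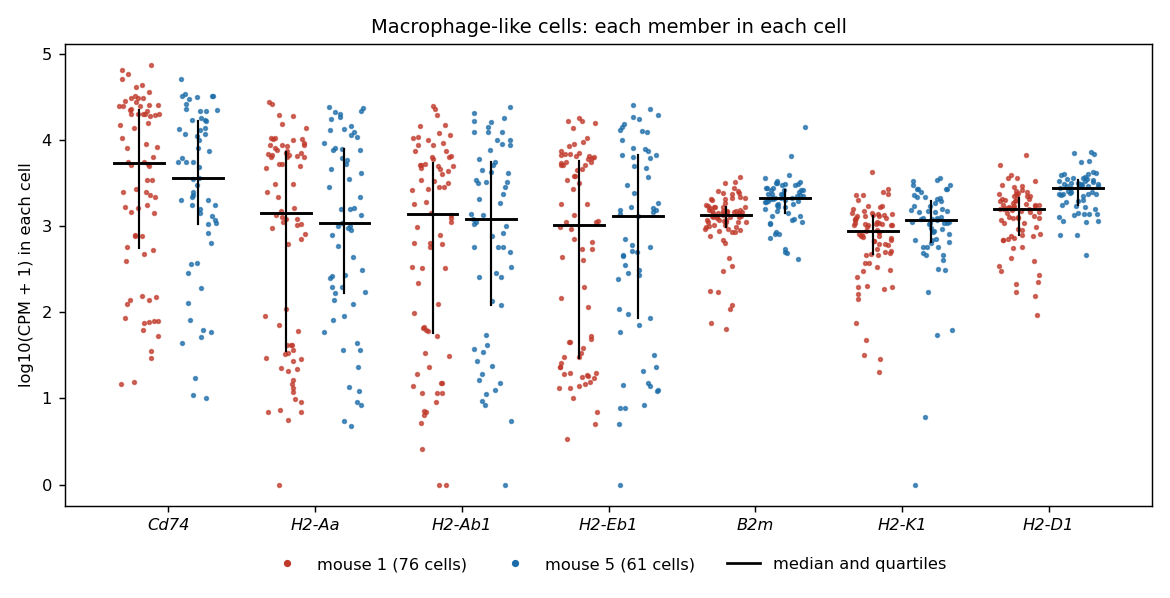
log10(CPM + 1) of each gene in each macrophage-like cell, with mouse 1 (76 cells) in red, mouse 5 (61 cells) in blue, and lines at the median and quartiles. The class II genes spread from near 1 to above 4 in both mice, and the class I genes lie mostly between 2 and 4.

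Of the 137 cells, 65 had over 10000 CPM of class II in all, 39 had 1000 to 10000 and 33 had 1000 or less. The 65 cells held 94.8% of the class II signal. Each mouse contributed to each range, with 37, 19 and 20 cells of mouse 1 and 28, 20 and 13 of mouse 5. Ciita had reads in 41 cells, 35 of them in the highest range, 4 in the middle and 2 in the lowest. The median of H2-DMa was 443.4 CPM in the highest, 15.3 in the middle and 0 in the lowest range, and that of H2-DMb1 340.9, 5.38 and 0. Over the 3 ranges some macrophage markers kept close medians and others did not. Lyz2, lysozyme, had medians of 9810, 10010 and 8722 CPM, and C1qa, a complement subunit made by tissue macrophages, of 5058, 6110 and 5013. Cd68 had medians of 833.1, 818.3 and 587.0 CPM, and Cd163, a scavenger receptor, of 172.1, 670.9 and 370.2. Lyve1, a receptor of resident macrophages, had medians of 488.7, 2089 and 979.1 CPM, and Fcna, a soluble lectin, of 438.0, 3919 and 3783. Ccr2, the receptor of incoming monocytes, had reads in 37 of 65, 20 of 39 and 4 of 33 cells, with medians of 3.87, 1.72 and 0 CPM. Its correlation with class II over the cells (Spearman's rho, centred within each mouse) was 0.341, while the other monocyte markers S100a4, Ly6c2 and Plac8 were at 0.134, 0.0404 and -0.0372.

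The class II members ranked the cells nearly alike. Spearman's rho between pairs of them, centred within each mouse, was 0.923 to 0.945 over the 137 cells (the plot of other genes against Cd74), where cells share their library preparation and depth. Pairs of class I members reached 0.207 to 0.321, and a class I with a class II member 0.0608 to 0.231. Among 3122 genes with reads in at least 50% of the cells, the closest to the class II mean were H2-DMa (0.732) and H2-DMb1 (0.622), then Tmem176a (0.445), Slamf9 (0.332), Rplp0 (0.326), Rpl8 (0.325), Gm48338 (0.323), Fxyd5 (0.305), Tmem176b (0.302) and Cd83 (0.299). Fcna (-0.44), Lyve1 (-0.37), Alox5 (-0.36), Ninj1 (-0.35) and Ly6e (-0.35) were the lowest, and the 5th and 95th percentiles over all compared genes were -0.19 and 0.167. H2-DMa (0.724 and 0.748), H2-DMb1, Lyve1 and Fcna kept their sign in each mouse alone. Other class II pathway genes followed less, with Ctss at 0.129, Ifi30 at 0.142 and Cd86 at -0.00011. Class II correlated at -0.285 with the summed resident macrophage list, at 0.208 with the monocyte list, at 0.143 with the dendritic cell list and at 0.203 with the ASC-like marker list. With signs of cell quality it was at -0.224 for the number of genes detected, -0.168 for the mitochondrial share and -0.0612 for the reads of the cell. The part of these in the ranking of cells was not tested.

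**Figure D3:**
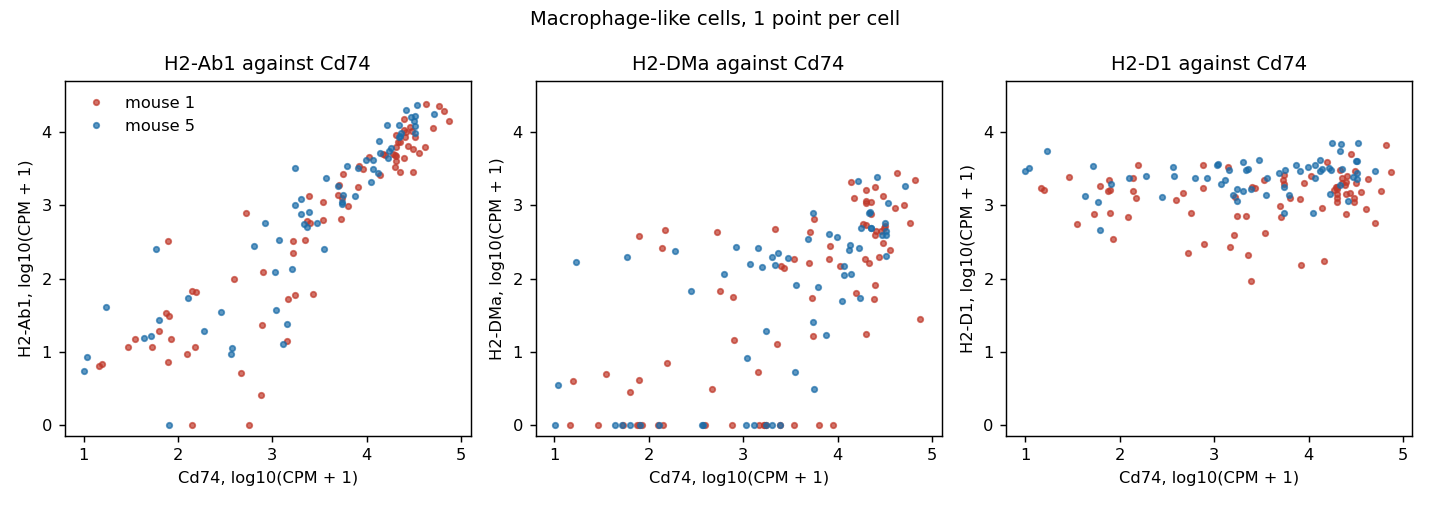
log10(CPM + 1) of H2-Ab1, H2-DMa and H2-D1 against Cd74 in each macrophage-like cell of mouse 1 (red) and mouse 5 (blue). H2-Ab1 rises with Cd74 over the whole range (rho 0.945 centred within mice), H2-DMa is often at 0 where Cd74 is low, and H2-D1 stays mostly between 2 and 4.

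Some cells of this class had few reads of the C1q genes, and these values bear on the upper end of the range. With C1qa, C1qb and C1qc summed, 15 cells had 1000 CPM or less, 13 of them of mouse 1, and 9 of the 15 had over 10000 CPM of class II. So had 56 of the other 122 cells. The median class II sum was 38430 CPM in the 15 cells and 8367 CPM in the 122. The resident macrophage list of the 15 cells had a median of 80.3 CPM against 7987 in the other 122 cells, and their monocyte list of 240.5 against 40.5. The 122 cells alone spanned 32.2 to 100500 CPM of class II, a 273.4-fold range between the 10th and 90th percentiles. This limit was chosen after the values were seen. In the 70 cells with 10 CPM or less of the dendritic cell list, the range was 455.2-fold. The part of other myeloid cells in the range was not otherwise tested.

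In ASC-like, EC-like and mural-like cells the class II genes were low and their reads were unevenly placed. The 19 epithelial-like cells, described at the end, were not low, at 3809 CPM of the 4 members summed. No class II member was called between EC-like and ASC-like cells (log2 fold changes -0.43 to 0.60, adjusted p of 0.714 or more in edgeR's quasi-likelihood test), where 8.69% of genes were called higher in EC-like cells and 13.3% lower. None of the 4 had an unadjusted p below 0.05, as 36.4% of genes had, and 0 were called by the likelihood ratio test or by DESeq2. At least 1 read of Cd74 was found in 9.51% of ASC-like cells (95% exact binomial interval 8.33 to 10.8), 36.4% of EC-like cells (32.4 to 40.6), 27.7% of mural-like cells (19.3 to 37.5) and all 137 macrophage-like cells (97.3 to 100). Thinned to 30000 reads outside ribosomal RNA per cell, the shares in ASC-like, EC-like and macrophage-like cells were 2.71%, 28.7% and 92.7%. These intervals cover counting error only. Among EC-like cells a read of any class II member was found in 174 of 176 cells of mouse 1, 31 of 46 of mouse 5, 26 of 169 of mouse 2 and 10 of 140 of mouse 6/7.

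The EC-like cells of mouse 1 stood apart from the other 4 mice for each class II gene, at 112.6 scaled CPM for Cd74, 38.5 for H2-Aa, 24.2 for H2-Ab1 and 26.4 for H2-Eb1. The highest value in another mouse was 5.82, 3.97, 3.97 and 6.96. Macrophage genes were high in the same sum, with Lyz2 at 117.3 (0 to 9.53 in the other mice) and C1qa at 41.4 (0 to 4.5), and these cells shared a plate with 73 macrophage-like cells. Of 124 cells there with over 100 CPM of class II, 119 also had over 100 CPM of an 11-gene myeloid list. Per read of C1qa they had 2.72 reads of Cd74, against 2.47 in the macrophage-like cells of mouse 1, and per read of Lyz2 0.96 against 1.41. The part of macrophage RNA in these values was not tested. Single EC-like cells of mouse 1 reached 3324 CPM of class II, and the cell at that value had 5620 CPM of the myeloid list. The 5 cells with at least 10 reads of each of the 4 members had 277.4 to 1413 CPM of that list.

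ASC-like cells had 9839 class II reads in 2250 cells (10.4 CPM), and 76 cells with over 100 CPM held 70.8% of them. Unlike in EC-like cells of mouse 1, the myeloid list had a median of 0 CPM in these 76 cells and was over 100 CPM in 15 (the plot of class II against myeloid genes). Mouse 5, whose plate held macrophage-like cells, went the other way. There 87 of 104 ASC-like cells had a class II read, all 6 cells with over 100 CPM of class II had over 10 CPM of the myeloid list (median 115.3), and the other ASC-like cells had a median of 29.9. In 57 of the 76 a single member had 10 or more reads, most often H2-Eb1 (29 cells), then H2-Ab1 (12), Cd74 (10) and H2-Aa (6). Only 1 of them had 10 or more reads of all 4, against 91 of the 129 macrophage-like cells with over 100 CPM. H2-Eb1 was accordingly the class II member with reads in the largest share of ASC-like cells, 11.9% (10.6 to 13.3). Among mural-like cells 7 had over 100 CPM of class II. In mouse 1 the 5 highest held 96.5% of the reads. The mean of 89.8 ± 126 scaled CPM for Cd74 (SD, n = 2) rests on 1 cell, which held 2470 of the 2653 Cd74 reads of the 82 mural-like cells of mouse 1 (93.1%), and without it Cd74 there was at 13.2 CPM. It was a pericyte-like cell with 6149 CPM of class II, at least 10 reads of all 4 members and 306.9 CPM of the myeloid list. No class II member was called between mural-like and ASC-like cells (the background was 4.25% of genes higher and 3.82% lower in mural-like cells), with log2 fold changes of 0.33 to 2.26 and adjusted p of 0.313 or more in edgeR's quasi-likelihood test. None of the 4 had an unadjusted p below 0.05 (22.3% of genes had), and 0 were called by the likelihood ratio test or by DESeq2.

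**Figure D4:**
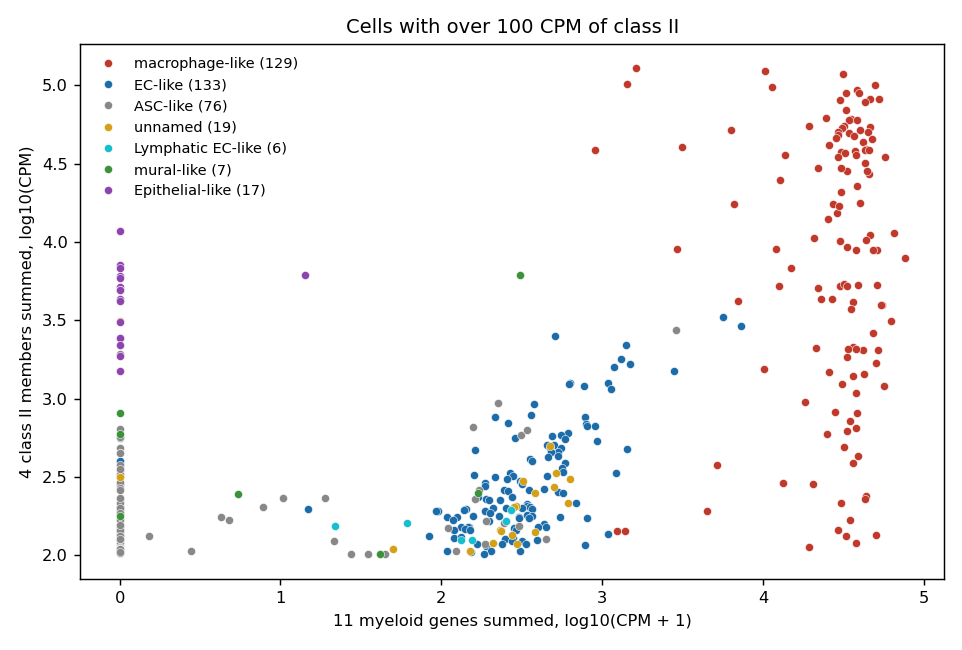
log10 CPM of the 4 class II genes summed against log10(CPM + 1) of 11 myeloid genes summed, for every cell with over 100 CPM of class II, coloured by cell class with the number of cells in brackets. Most ASC-like and epithelial-like cells lie at 0 myeloid reads, and most EC-like cells lie between 2 and 3, below the macrophage-like cells.

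Class I transcripts were found in nearly every cell, and their highest mean levels were in EC-like cells. B2m had a read in 3260 of 3261 cells, and H2-K1 and H2-D1 in at least 93.1% of cells of each of the 4 classes. Per kilobase of exon, B2m averaged 3754 ± 1459 scaled CPM in EC-like cells (n = 5), 2951 ± 2654 in mural-like (n = 2), 2502 ± 886 in macrophage-like (n = 2) and 1341 ± 863 in ASC-like cells (n = 7). H2-D1 followed with 1900 ± 640, 740.2 ± 419, 970.1 ± 311 and 562.5 ± 162, and H2-K1 with 1149 ± 291, 502.3 ± 273, 443.7 ± 90.3 and 297.4 ± 99.9 in the same classes. Of neighbours in these orders, EC-like and the next class did not overlap over mice for H2-K1, and all other neighbours overlapped.

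H2-K1 stood at 2112 scaled CPM in the EC-like cells of mouse 1, 3143 in mouse 2, 3447 in mouse 5, 4446 in mouse 6/7 and 3725 in mouse 8. In ASC-like cells its lowest, median and highest values were 556.3, 860.7 and 1394, so that each EC-like sum lay above each ASC-like sum. H2-D1 was at 2685, 4488, 4537, 5608 and 7178 in the EC-like cells of the same mice and at 945.0 to 2203 (median 1466) in ASC-like cells, again without overlap. B2m was at 2403, 4816, 3131, 4094 and 1699 in EC-like cells and at 451.5 to 2520 (median 898.1) in ASC-like cells, and here the sums of the classes overlapped. All 3 members were called higher in EC-like cells, as were 8.69% of genes, with log2 fold changes of 2.13 ± 0.21 for H2-K1 (adjusted p = 0.000101), 1.91 ± 0.22 for H2-D1 (0.00021) and 1.43 ± 0.23 for B2m (0.00144) in edgeR. Within each of the 5 mice EC-like cells had 1.91 to 3.76 times the B2m, 3.30 to 5.60 times the H2-K1 and 2.84 to 5.36 times the H2-D1 of ASC-like cells. In mice 5 and 8, whose EC-like and ASC-like cells shared 1 plate, H2-K1 was 5.60 and 5.49 times higher. B2m lies close to the 2.6-fold limit and stayed above it in 12 of 19 alternatives, with an adjusted p of 0.025 or less in all 19. H2-K1 and H2-D1 were called in all 19.

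The light and heavy chain transcripts did not keep 1 ratio. B2m over the sum of H2-K1 and H2-D1, each per kilobase, ran from 0.64 to 3.28 in the ASC-like sums and from 0.488 to 1.99 in the EC-like sums. It was 1.66 and 1.84 in macrophage-like and 1.43 and 2.79 in mural-like cells. H2-D1 had 1.26 to 2.06 times the scaled CPM of H2-K1 over the 16 sums on a shorter exon length (2579 against 2938 bases), so it was higher per kilobase in every sum. Single-end reads of 50 bases cannot always be assigned between H2-K1, H2-D1 and the H2-Q genes, so the split among these is uncertain.

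Of 14 listed genes of the class I pathway, 8 were called higher and 1 lower in EC-like than in ASC-like cells, and their median log2 fold change was 1.51 against -0.12 over all genes (the plot of class I pathway genes). Of all genes tested, 8.69% were called higher in EC-like cells and 13.3% lower, which is the background for each list here. Nlrc5, the class I coactivator, was at 28.8 ± 21.4 scaled CPM (n = 5) against 3.52 ± 2.86 (n = 7), a log2 fold change of 2.79 ± 0.72. Psmb9 (2.54 ± 0.30) and Psmb8 (2.50 ± 0.24), subunits of the immunoproteasome, Tap1 (2.03 ± 0.31) and Tap2 (1.87 ± 0.26), which form the peptide transporter, and Erap1 (1.62 ± 0.26), which trims peptides, were called too, with adjusted p of 0.0178 or less in edgeR. The chaperone gene Calr was the 1 gene called lower (-1.57 ± 0.20), and is named outside the rule for that reason. Pdia3 (-1.22 ± 0.22, adjusted p = 0.00246) and Canx (-0.952 ± 0.218, adjusted p = 0.010), which also serve folding in the endoplasmic reticulum, had lower values within the 2.6-fold limit, and the proteasome activator genes Psme1 (1.30 ± 0.21) and Psme2 (1.29 ± 0.23) higher ones within it. Tapbp had an adjusted p of 0.139. Of 10 other class I-like genes 4 were called higher, H2-Q6 (6.11 ± 0.51), H2-Q7 (4.59 ± 0.35), H2-Q4 (2.63 ± 0.39) and Cd1d1 (1.95 ± 0.43), which encodes a presenter of lipids, and none lower. Of 18 genes of interferon signalling and response 6 were called, all higher in EC-like cells. Among them were Gbp4 (6.13 ± 0.56), Gbp2 (1.97 ± 0.26), Irf7 (1.80 ± 0.31), Irf1 (1.79 ± 0.22) and Ifit3 (1.54 ± 0.32). Over the 16 sums, the genes most like the class I mean among 12829 were Gbp7 (Pearson's r 0.939), Bambi-ps1 (0.935), Gm20659 (0.932), Casp8 (0.927), Rb1 (0.924) and Psme1 (0.918), and these sums share mice and cell classes.

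**Figure D5:**
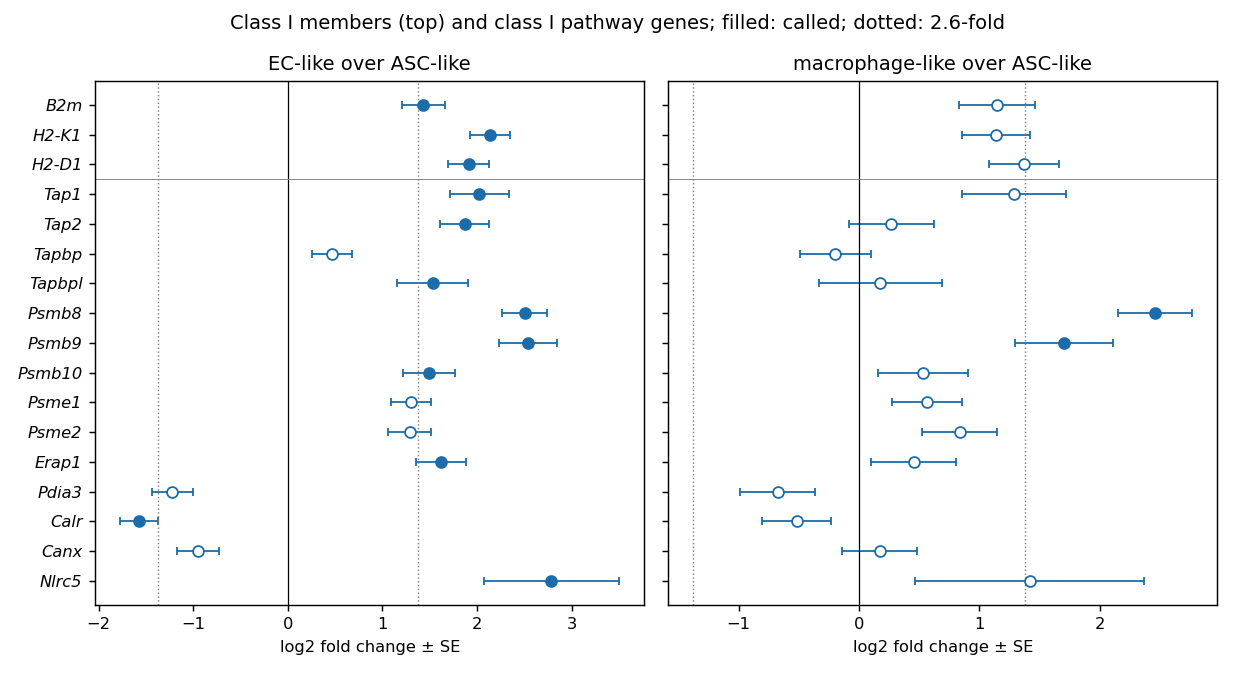
log2 fold change ± SE of the class I genes and 14 class I pathway genes, EC-like over ASC-like cells (left) and macrophage-like over ASC-like cells (right), with filled points called and dotted lines at 2.6-fold. In the left panel 8 pathway genes are filled at higher values and Calr at a lower one, and only Psmb8 and Psmb9 are filled in the right panel.

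In macrophage-like cells mean class I lay between the ASC-like and EC-like levels in scaled CPM. B2m stood at 1613 scaled CPM in mouse 1 and 2691 in mouse 5, H2-K1 at 1116 and 1491, and H2-D1 at 1935 and 3069. Against ASC-like cells the log2 fold changes were 1.15 ± 0.31, 1.14 ± 0.28 and 1.37 ± 0.29, with adjusted p of 0.0367, 0.0236 and 0.0118 in edgeR. All were under the 2.6-fold limit, so 0 were called, where 6.12% of genes were called higher and 8.79% lower. The likelihood ratio test and DESeq2 also called 0. In edgeR all 3 had an unadjusted p below 0.05, as 28.5% of genes had. The direction depended on the scale. Relative to the reads of Gapdh, a scale chosen after seeing the data like those that follow, the macrophage-like mean (n = 2) was 1.29 times the ASC-like mean (n = 7) for B2m, 1.04 times for H2-K1 and 1.195 times for H2-D1. Relative to Actb these ratios were 0.724, 0.650 and 0.760, and relative to Hprt 0.390, 0.352 and 0.398. Over the summed reads of Actb, Gapdh and Hprt, B2m was at 14.5 ± 1.78% against 19.2 ± 16.2% (SD), H2-K1 at 8.93 ± 0.304% against 13.3 ± 6.25% and H2-D1 at 16.9 ± 1.47% against 21.6 ± 8.14%, each within 1 SD of the ASC-like mice. Against EC-like cells 0 were called by edgeR's quasi-likelihood test, the likelihood ratio test or DESeq2, where edgeR called 6.32% of genes higher and 7.63% lower. In edgeR 1 had an unadjusted p below 0.05 (26.2% of genes had). It was H2-K1 (-0.996 ± 0.30, adjusted p = 0.0547), at 0.528 and 0.433 times the EC-like level within mice 1 and 5. Of the 14 pathway genes Psmb8 (2.46 ± 0.31) and Psmb9 (1.71 ± 0.41) were called higher than in ASC-like cells, and Tap2 (-1.6 ± 0.39) lower than in EC-like cells. Of 18 interferon genes, Irf8 (4.34 ± 1.21), a factor of myeloid cells, and Ifnar1 (1.64 ± 0.32) were called higher and Gbp2 (-1.48 ± 0.38) lower than in ASC-like cells. Against EC-like cells Gbp4 (-7.28 ± 0.92), Gbp2 (-3.46 ± 0.42), Ifit3 (-2.03 ± 0.49) and Irf1 (-1.43 ± 0.32) were called lower, and Irf8 (4.58 ± 1.19) and Ifngr2 (2.19 ± 0.44) higher. Fcgrt, which encodes the receptor that carries IgG, was called higher than in both (1.96 ± 0.33 over ASC-like and 2.28 ± 0.33 over EC-like cells), and H2-Q6 (-4.85 ± 0.74), H2-Q7 (-2.57 ± 0.49), H2-Q4 (-2.36 ± 0.58) and H2-T22 (-2.28 ± 0.36) lower than in EC-like cells. H2-Q7 was higher than in ASC-like cells (2.02 ± 0.42).

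Mural-like cells held a wide range of class I. The sums of mice 1 and 2 were at 923.8 and 4152 scaled CPM for B2m, 909.8 and 2042 for H2-K1 and 1145 and 2673 for H2-D1. Against ASC-like cells 0 class I members were called by edgeR's quasi-likelihood test, the likelihood ratio test or DESeq2, where edgeR called 4.25% of genes higher and 3.82% lower. In edgeR 2 had an unadjusted p below 0.05, as 22.3% of genes had. H2-K1 had a log2 fold change of 1.05 ± 0.28, under the 2.6-fold limit, and an adjusted p of 0.0507 in edgeR. Psmb9 (2.05 ± 0.41) and Psmb8 (2.04 ± 0.31) were called higher in mural-like cells, as were H2-Q6 (4.84 ± 0.57) and H2-Q7 (3.59 ± 0.43), and Cd1d1 (-4.78 ± 0.78), Pdia3 (-1.39 ± 0.32) and Calr (-1.38 ± 0.30) lower. Gbp4 (5.22 ± 0.67) and Gbp2 (1.85 ± 0.34) were among the interferon genes called higher. In mouse 1 the 44 pericyte-like cells had a lowest, median and highest class I sum of 266.5, 4681 and 19340 CPM, and the 38 VSMC-like cells of 45.0, 282.7 and 941.2. With 1 mouse this difference has no replicate check. Class I in pericyte-like cells moved with EC markers. The 16 pericyte-like cells of mouse 1 with 100 CPM or less of the 4 EC markers had a median class I sum of 827.2 CPM, the 3 with 100 to 1000 CPM one of 1206, and the 25 with over 1000 CPM one of 6712. Over the 44 cells Spearman's rho of the class I sum was 0.828 with the EC markers and -0.75 with the 4 pericyte markers. In mouse 2, 12 of 13 pericyte-like cells had over 1000 CPM of the EC markers, with a median class I sum of 10910 CPM. These limits were chosen after the values were seen, and the part of endothelial RNA in the mural-like values was not tested. The VSMC-like cells carried a median of 34.1 CPM of the EC markers.

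Plates gave the same members without any clustering. In mouse 2, the CD31-positive plate had 5241 CPM of B2m, 3253 of H2-K1 and 4728 of H2-D1, against 1935, 815.8 and 1260 on the plate of DPP4-positive cells and 3000, 1057 and 1632 on the plate of DPP4-negative cells. In mouse 1, the CD31-positive plate had 1877, 1534 and 2112 CPM of these genes and the plate sorted on the reporter 848.0, 670.0 and 1021. The CD31-positive plate was thus the highest for each class I gene in both mice, with 1 plate per sort and so with no test. Cd74 was at 4399 CPM on the CD31-positive plate of mouse 1, which held macrophage-like cells, and at 0.261 CPM on that of mouse 2, which held none.

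No member was called between the sexes, with mice as replicates. In ASC-like cells, 251 of 11816 genes passed the test (2.12%), of which males were higher for 1.44% and females for 0.686% of all genes, while 19.4% had an unadjusted p below 0.05. B2m was at 576.0 ± 212 scaled CPM in the 3 males and 1518 ± 727 in the 4 females (SD). With a log2 fold change of -1.40 ± 0.43 and an adjusted p of 0.134 in edgeR it did not pass. It was the 1 member with an unadjusted p below 0.05, and it was called by the likelihood ratio test (adjusted p = 0.041) and not by DESeq2, where its fold change was under the limit. H2-K1 (-0.55 ± 0.33) and H2-D1 (-0.25 ± 0.33) did not pass either, nor did Cd74 (0.47 ± 1.03) and H2-Eb1 (0.23 ± 0.55), and H2-Aa and H2-Ab1 had too few reads. Of the listed genes, Lgmn (-1.61 ± 0.34, adjusted p = 0.0428) and H2-Q7 (-2.10 ± 0.31, adjusted p = 0.00905) were called lower in males. In EC-like cells 4 of 8115 genes passed (0.0493%), with 0.0123% of genes higher in males, 0.0370% in females, and 599 had an unadjusted p below 0.05 (7.38%). B2m was at 2110 ± 500 in 2 males and 4248 ± 869 in 3 females, all of them mice of the ASC-like comparison too. Its log2 fold change was -1.01 ± 0.40, with an adjusted p of 0.659 in edgeR. It was the 1 of 4 members tested with an unadjusted p below 0.05, with 0 called by the likelihood ratio test or DESeq2. H2-K1 (-0.37 ± 0.41) and H2-D1 (-0.02 ± 0.47) were not called. The mice differ in sort and plate as well as in sex, so these cannot be told apart. Macrophage-like and mural-like cells came from 1 mouse of each sex and were not compared.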

How the data were processed

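The authors sequenced Smart-seq2 libraries as single reads of 50 bases, aligned them with STAR to mm10 and quantified genes with Salmon and tximport. What they deposited are raw read counts, whole numbers for each gene in each cell, after the authors had removed poor and mixed cells. The table has 23507 gene rows and 72 spike-in rows over 3261 cells. Strand use and the versions of these tools for these files are not given in the sources used here. Spike-ins were left out, as were 9 ribosomal RNA rows (44.1% of gene reads, 29.9% to 71.2% of a sum), a choice made after seeing the data.

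Members and lists were chosen with earlier results of these data known. Cells were clustered in Seurat 5.3.0 (3000 variable genes, 14 principal components, resolution 1.1, 18 clusters) without 67 listed genes, and named from 3 or more fixed markers. The limits that left clusters unnamed were set after the clusters were seen. No doublet caller was run. Counts were summed per mouse and class (at least 10 cells), and the two-sided quasi-likelihood test of edgeR 4.0.16 (limma 3.58.1, R 4.3.3) was run on genes with over 600 counts in 2 or more sums. Calls needed a Benjamini-Hochberg adjusted p below 0.05 and a change over 2.6-fold. One fit held all 4 classes with the mouse as a block, since sums of a block come from 1 animal (2 for mouse 6/7); sex was fitted within a class. Where a fit drops a mouse, a lone sum is assumed to vary like the others. Summed levels carry TMM factors, and levels per cell do not. Shares of cells have exact (Clopper-Pearson) binomial intervals. Limits on EC markers and C1q genes in cells were set after the values were seen. The study used the likelihood ratio test of edgeR, which was an alternative beside DESeq2 1.42.0, other scalings, filters, classes and left-out mice. Each test was tested on simulated data before use.

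Text names the members, of each list up to 6 called genes per comparison by size of change, the 10 highest and 5 lowest correlated genes with class II in macrophage-like cells, and the 6 most like class I over sums. Of 23507 rows, 23461 matched GENCODE vM21. List genes with no row used here included H2-Oa, H2-Eb2, Flt3, Xcr1, Ms4a1, Cd3e, Nkg7 and Ccl21d. A few listed genes and a planned scale on reference genes are not reported here, though the genes stay in the counts. Plates give the sorts per the labels. Other tools were matplotlib 3.10.9, pandas 2.3.3, scipy 1.17.1, numpy 2.4.6 and Python 3.11.15.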

Additional observations from a re-analysis of the deposited data

Results flagged for a closer look

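In the EC-like cells of 5 mice, mouse 1 lay far from the others for all 4 class II members by Dixon's test at its 95% critical value. Cd74 was at 112.6 scaled CPM (next highest 5.82), H2-Aa at 38.5 (3.97), H2-Ab1 at 24.2 (3.97) and H2-Eb1 at 26.4 (6.96). Among the ASC-like cells of the 4 female mice, mouse 5 lay apart for H2-Aa, at 3.46 against 0.855 in the next. Both mice are those with macrophage-like cells on their plates. In all, 5 of 21 groups had such a value. The groups are not independent. The EC-like values are 1 sum of mouse 1 seen through 4 genes, and the female groups repeat mice of the groups of all mice. The count was therefore not set against chance. Outside the comparisons, the 19 epithelial-like cells of mouse 1 had 3809 CPM of the 4 class II members summed, against 0.977 CPM for the limit of 3 reads of their 3071672.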

How the results depend on the processing

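Of 663 log2 fold changes of members under alternatives, 618 kept their direction and side of the threshold, 16 lost their call, 4 gained one, 25 uncalled values changed sign and 0 called values reversed. Counts of called genes moved more, and the cause was not tested. Against ASC-like cells, mural-like calls (1035) were 1943 with the likelihood ratio test, 2409 with DESeq2, 148 with classes from each cell's markers, 491 without cells with over 10 CPM of myeloid genes among all gene reads, 1588 with no replicate block, 0 with only the classes compared (fewer sums) and 190 to 1040 without each mouse in turn. Macrophage-like calls (1913) were 2913 with the likelihood ratio test, 3250 with DESeq2 and 620 (mouse 1) to 2029 without a mouse, and members called 1 to 5. Against EC-like cells, macrophage-like calls (1791) were 2919 with DESeq2, 995 without cells with myeloid reads, 984 with only the classes compared and 575 (mouse 5) to 1879 without a mouse, with 2 to 4 members called, and 2 with classes from markers. With ribosomal RNA kept in the totals, an alternative chosen after seeing the data, these 3 counts were 1046, 1936 and 1784. Without the block no other call of a member changed. Sex calls in ASC-like cells (251) were 154 with no filter, 550 with the likelihood ratio test, which called 1 member (B2m, adjusted p = 0.041), 592 with DESeq2 and 96 (mouse 6/7) to 330 without a mouse, 111 without mouse 8 and 140, 143 and 153 without mice 4, 5 and 2. In EC-like cells (4) they were 1 with DESeq2 size factors, 0 from 10 counts, 0 with no filter and 0 without myeloid reads, 55 with the likelihood ratio test, 101 with DESeq2 and 0 to 753 (mouse 1) without a mouse. The class II range in macrophage-like cells (447.4) was 340.2 with cells from their own markers. Macrophage-like and mural-like cells rest on 2 mice each, which limits every value of theirs.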

Other observations

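The epithelial-like cells, all from the reporter-sorted plate of mouse 1 and named from Epcam, Krt18 and Fgfr4, held class II transcripts with few reads of macrophage genes. Cd74 was at 2467 CPM over the 19 cells, H2-Ab1 at 498.7, H2-Aa at 485.7 and H2-Eb1 at 357.1. In 17 of the 19 cells the class II sum was over 100 CPM, and 14 of these had at least 10 reads of each of the 4 members. The highest cell had 11810 CPM. Lyz2 and C1qa were at 0 in these cells, and the 11-gene myeloid list summed to 0.326 CPM, with 1 of the 17 cells over 10 CPM. Ciita had 0 reads in them, which at 3 reads allows up to 0.977 CPM, against reads in 41 of 137 macrophage-like cells. B2m was at 1412 CPM, H2-K1 at 2505 and H2-D1 at 2198. The cells come from 1 animal, so no test was made.

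The 22 lymphatic EC-like cells had 619.7 CPM of B2m and 780.4 of H2-K1 over all cells, below both clusters of EC-like cells (2555 and 4884 for B2m, 2143 and 3865 for H2-K1). In mouse 1 the median class I sum was 1436 CPM in 9 lymphatic EC-like cells and 6620 in 176 EC-like cells. ASC-like clusters ranged from 440.7 to 3459 CPM of B2m, and these clusters differ in which mice they hold.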
